A study of Mus musculus with 416 samples.

Results

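The 7SL and 7SK noncoding RNAs are represented by 4 of the 46517 gene IDs measured in mouse striatum: Rn7s1, Rn7s2 and Rn7s6 for 7SL and Rn7sk for 7SK. They were chosen by name, with their level, distribution shape, share of the library total and split between copies over these same libraries already known. Over all libraries those properties are described here without a test. Tests were used for comparisons between labelled sexes and generations and for correlations over libraries. All 4 members passed the filter on low counts. The 416 libraries came from Diversity Outbred (J:DO) mice that had received no drug. In this outbred population each animal carries its own mosaic of inbred founder genomes, and no allele, transgene or treatment sets any group apart. Libraries labelled female numbered 76, 60 and 72 in breeding generations 21, 22 and 23, and those labelled male 74, 59 and 75. Each was made from total striatal RNA depleted of ribosomal RNA with a stranded kit, so that RNAs without a poly(A) tail were retained.

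7SL RNA is the scaffold of the signal recognition particle, which binds ribosomes that are making secreted or membrane proteins and docks them at the endoplasmic reticulum. 7SK RNA works in the nucleus, where with HEXIM, LARP7 and MEPCE it holds the kinase P-TEFb in an inactive store and so restrains elongation by RNA polymerase II. Both are short, strongly folded products of RNA polymerase III and are found in most cell types. Neurons draw on the 7SL route for receptors, channels and secreted peptides.

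The 7SL models were compared first because their likeness limits what the counts of each copy can mean. The models were read from the transcripts of GENCODE release M21 (build GRCm38). Rn7s1 (ENSMUSG00000099021, chromosome 12, plus strand) and Rn7s2 (ENSMUSG00000099250, chromosome 12, minus strand) are single-exon models of 300 bases and identical in every base. Rn7s6 (ENSMUSG00000092746, chromosome 6, plus strand) is 9 bases shorter and, up to its last 77 bases, differs from Rn7s1 at 3 positions. After that point the models diverge. Of the windows of 100 bases in Rn7s1, the read length of this study, each occurs in Rn7s2 and 36.8% occur whole in Rn7s6. A read from the Rn7s1 and Rn7s2 pair therefore carries no base that tells these copies apart.

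The 7SK model Rn7sk (ENSMUSG00000065037, chromosome 9, minus strand) is 31 bases longer than Rn7s1. Its first 110 bases, which cover the 5′ hairpin, are shown 5′ to 3′ on the gene's own strand, in DNA letters, for the GATC motif (GAUC in RNA), known as the part of 7SK that HEXIM recognises. Capitals mark the 3 matches, which start at positions 13, 42 and 64. The motif is its own reverse complement, so both strands give the same matches.
Rn7sk: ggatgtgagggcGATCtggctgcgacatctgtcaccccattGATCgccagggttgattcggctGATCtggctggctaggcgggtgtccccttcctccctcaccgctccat
At least 3 GATC matches in the same window were found in 28 of the 484 misc_RNA models of at least that length (5.79%). The models counted include Rn7sk itself and 7SK-like models related to it in sequence. The share is therefore not a rate among unrelated RNAs. The match is a description of the sequence, and binding was not measured.

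The 7SL and 7SK RNAs were among the most heavily counted genes of the striatum. By mean count over libraries Rn7s2 ranked 1 of all gene IDs, ahead of the nuclear RNA Malat1, with Rn7sk at rank 3, the mitochondrially encoded oxidase subunit gene mt-Co1 at rank 4 and Rn7s1 at rank 5. Rn7s6 ranked 8637. Together the 4 members took between 4.54% and 10.6% of a library's total count, with a median of 6.89%. These ranks and shares are of counts, not of counts per base.

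Levels are given as CPM, counts per 1000000 counts of a library after scaling with TMM factors. Rn7s2 ran from 7538 to 80320 CPM over the 416 libraries with a median of 39160 CPM. Rn7s1 ran from 5.63e-07 to 45920 CPM, with quartiles of 56 and 24530 CPM, and 15 libraries had an estimated Rn7s1 count that rounds to 0. Their sum was far tighter: the lowest library held 25800 CPM, the median 50190 CPM and the highest 80430 CPM, and the highest was 1.6 times the median. Rn7sk was as compact, at 12650, 18400 and 29830 CPM for the lowest, median and highest library, 1.62 times the median at the top.

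On the log2 CPM scale the SD between libraries was 5.09 for Rn7s1, larger than in all but 5 of the 22968 genes tested, and 0.8 for Rn7s2. Summing the identical copies gave an SD of 0.253, and 57.5% of genes tested had a larger one. The SD of Rn7sk was 0.216, below that of 64.6% of genes tested and equal to the median of the 57 genes with a mean level of at least 1000 CPM. The wide spread of Rn7s1 and Rn7s2 was thus a spread in how the pair was divided. The pair's total varied far less, with an SD somewhat above the median of those 57 abundant genes. Its rank among them was not computed.

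Per base of the gene models, the 3 summed 7SL genes stood at a median of 2.99 times Rn7sk, between 1.45 times and 4.24 times in single libraries. As CPM, without the length correction, the ratio was 2.71 at the median and 1.31 to 3.85 over libraries.

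The division of the pair was not continuous. Rn7s1 took up to 0.366% of the pair in 210 libraries, 3.71% to 5.01% in 7, 36% to 37.3% in 54, 41.1% to 45.5% in 14, 50% in 79 and 74.3% to 79.4% in 52, and no library fell in between. The widest empty stretches were 30.9 percentage points, between 5.01% and 36%, and 24.3 percentage points, between 50% and 74.3%. In all 79 libraries of the 50% band the 2 estimated counts were equal to within 1e-09 percentage points of the share. These bands were drawn after the shares were seen, at the widest gaps.

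**Figure D1:**
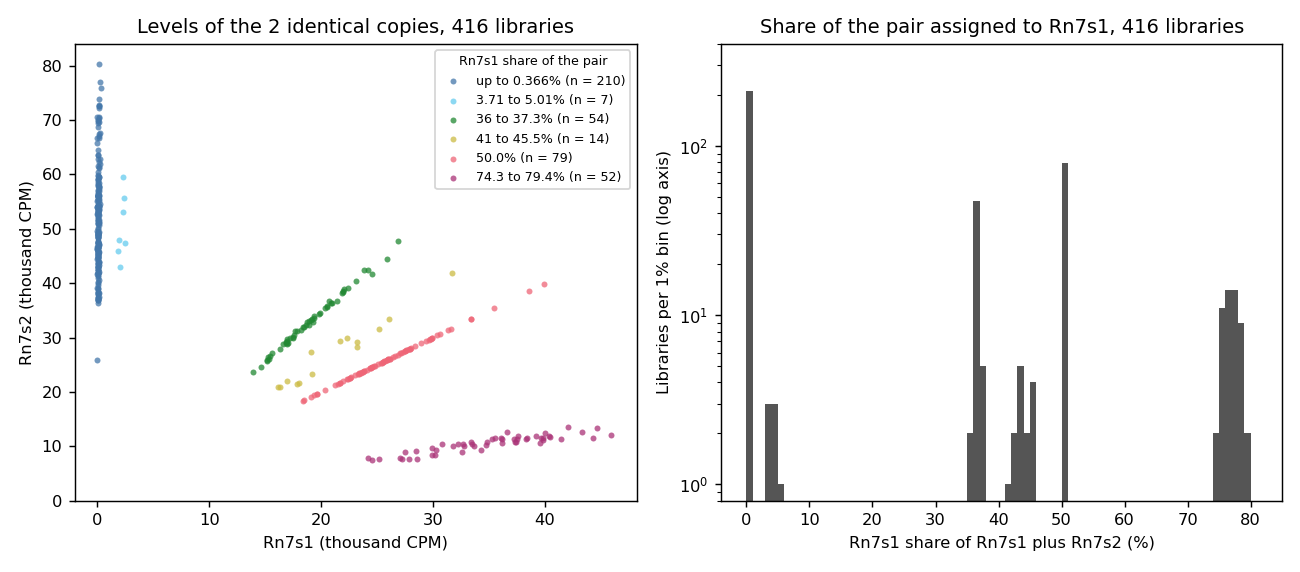
Left, Rn7s1 against Rn7s2 in units of 1000 CPM, 1 point per library, coloured by the band of the Rn7s1 share; right, number of libraries per 1% bin of that share on a log axis. The points fall into 6 separate bands, of which the most populated are the 210 libraries with up to 0.366% Rn7s1 and the 79 libraries with equal values.

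Since the bands are defined by the Rn7s1 share, a narrow band ties the level of one copy to that of the other by construction. In the 50% band Rn7s1 and Rn7s2 both ran from 18420 to 39920 CPM. In the band with the highest Rn7s1 share, Rn7s1 ran from 24200 to 45920 CPM and Rn7s2 from 7538 to 13530 CPM. In the band with the lowest share Rn7s2 ran from 25800 to 80320 CPM, while Rn7s1 ran from 5.63e-07 to 276.3 CPM, a far wider relative range. There the level of one copy did not fix that of the other.

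The pair's total did not separate the bands. The median sum was 51200 CPM in the band of lowest Rn7s1 share, 49940, 51480, 48840 and 51130 CPM in the next 4, and 46760 CPM in the band of highest share, and the ranges of all 6 overlapped. All 6 bands occurred in each generation and in each labelled sex. The 50% band held 15.3%, 14.3% and 26.5% of the libraries of generations 21, 22 and 23, and the band at 36% to 37.3% held 16.7%, 14.3% and 8.16%. All 416 libraries had an estimated count for each member that was not whole. How the counting divided reads between identical copies is not given in the sources used here, and what sets the bands was not tested.

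The mean Rn7s1 share did not differ detectably between the labelled sexes or the generations. It was 26.8% ± 29.3 (SD) in libraries labelled female and 24.1% ± 27.4 in those labelled male, a difference of 2.71 percentage points ± 2.79 (SE; two-sided permutation test within generations, adjusted p = 0.376 over 8 tests). In generations 21, 22 and 23 it was 26.7% ± 29.1, 22.7% ± 27.5 and 26.4% ± 28.4 (SD). The 3 differences between generations were -4 ± 3.46, -0.272 ± 3.34 and 3.72 ± 3.44 percentage points for 22 minus 21, 23 minus 21 and 23 minus 22, with adjusted permutation p of 0.376, 0.934 and 0.376. With SEs near 3 percentage points, differences of a few points were not detectable. A mean describes such separate bands poorly, and so does a median. The median share was 20%, 0.289% and 4.11% in generations 21, 22 and 23. The medians differed by -19.7 points for 22 minus 21 and by -15.9 for 23 minus 21. The 20% lies in the stretch between 5.01% and 36%, where no library fell. The band of lowest share held 49.3%, 54.6% and 48.3% of the libraries of the 3 generations, so a few libraries decide where a median lands. Differences in medians were not tested.

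Rn7s6, the diverged 7SL-related model on chromosome 6, behaved differently from the pair. It ran from 1.51 to 58.4 CPM with a median of 4.87 CPM, at most a small fraction of a percent of the pair. Its levels fell into a low and a high range: 42.8% of libraries were above 10 CPM, with a median of 27.5 CPM, and the rest were at or below it, with a median of 3.5 CPM. The limit of 10 CPM was set after the levels were seen. Between 7 and 15 CPM there were 18 libraries, of which 17 belonged to generation 21.

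The high range of Rn7s6 did not track the division of the pair. It held 41.9%, 42.9%, 37%, 57.1%, 45.6% and 44.2% of the libraries in the 6 bands, from the lowest to the highest Rn7s1 share, where the band with 57.1% has 14 libraries and the second band only 7. Since 36.8% of the windows of Rn7s1 recur in Rn7s6, how the counting placed reads from the shared stretch bears on its level, and this was not tested.

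Other gene models related in sequence to 7SL and 7SK took few counts. A search of the annotated small noncoding RNA models, misc_RNA among them, found 24 further 7SL-like models in the table. Of these 8 were tested and 8 were at 0 in every library. Among the more numerous 7SK-like models 49 were tested and 32 were at 0 in every library. Summed, the 7SL-like models took 17 to 48.4 CPM and the 7SK-like ones 27.6 to 47.3 CPM. At the median this was 0.0562% of all 7SL-family counts and 0.199% of all 7SK-family counts. The highest 7SL-like model was Gm26461 (chromosome 9), at 16.2 ± 4 CPM (SD, n = 416) and 96.5% identical to a member over the aligned bases. The next were Gm25072 at 5.62 ± 1.88, Gm22993 at 3.11 ± 0.892 and Gm24576 at 1.36 ± 2.1 CPM. The highest 7SK-like models were Gm24447 (chromosome 15), at 7.91 ± 1.78 CPM and identical to Rn7sk over the aligned bases, then Gm26035 at 3.39 ± 1.31, Gm26315 at 2.03 ± 1.12 and Gm24146 at 1.32 ± 0.3 CPM. Gm25072 and Gm22993 were 88.3% and Gm24576 86.7% identical to a member, each over an aligned stretch shorter than a read. Gm26035, Gm26315 and Gm24146 were 96.1%, 99.6% and 97.5% identical to a member, each over a stretch longer than a read. Models as close to a member as Gm26461 and the named 7SK-like models can take reads from it or lose reads to it. Such an exchange of reads was not tested.

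Total 7SL and 7SK were both lower in generation 23 than in 21, by amounts that are small beside the range within a generation. The question was whether breeding generation, 1 of the 2 labels that vary in this study, goes with a change of these RNAs. Rn7sk fell from generation 21 to 22 and again to 23, and the summed pair was lower in generation 23 than in either earlier generation. The difference in Rn7s6 passed the test between generations 23 and 21 and not in the other 2 pairs of generations.

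Rn7sk ran from 14490 to 29830 CPM with a median of 20340 CPM in generation 21, from 12650 to 27130 with a median of 18050 in generation 22, and from 12750 to 23000 with a median of 17290 in generation 23. The 3 ranges overlap, and the highest library is lower in each later generation. The fitted log2 difference of Rn7sk was -0.16 ± 0.023 (SE) for generation 22 minus 21 (0.893-fold; edgeR quasi-likelihood test, Benjamini-Hochberg adjusted p = 9.32e-11). It was -0.26 ± 0.022 for 23 minus 21 (0.833-fold, adjusted p = 1.17e-27 in edgeR). It was -0.10 ± 0.023 for 23 minus 22 (0.932-fold, adjusted p = 0.000486 in edgeR).

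The summed pair ran from 25800 to 74660 CPM with a median of 53700 CPM in generation 21, from 32070 to 80430 with a median of 50730 in generation 22, and from 32070 to 72780 with a median of 46650 in generation 23. The 3 ranges overlap almost entirely, and generation 22 holds the highest library. Fitted as 1 row, the pair differed by -0.05 ± 0.029 on the log2 scale for generation 22 minus 21 (adjusted p = 0.14 in edgeR). It differed by -0.20 ± 0.028 for 23 minus 21 (0.869-fold, adjusted p = 1.18e-11 in edgeR) and by -0.15 ± 0.029 for 23 minus 22 (0.9-fold, adjusted p = 5.01e-05 in edgeR).

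Fitted as separate rows, the copies gave a blurred version of this. Rn7s2 was lower by 0.867-fold in generation 23 than in 21 (log2 -0.21 ± 0.084, adjusted p = 0.0267 in edgeR), a call that was lost once the 29 libraries standing apart by total or correlation were left out (log2 -0.14, adjusted p = 0.17 in edgeR). Its log2 difference was -0.23 ± 0.089 for 23 minus 22 (adjusted p = 0.0524 in edgeR) and 0.03 ± 0.088 for 22 minus 21 (adjusted p = 0.842 in edgeR). Rn7s1 had log2 differences of -0.29 ± 0.4, -0.19 ± 0.38 and 0.10 ± 0.4 for 22 minus 21, 23 minus 21 and 23 minus 22 (adjusted p = 0.584, 0.684 and 0.898 in edgeR). Its standard errors were over 10 times those of the pair's sum, so a change of the size seen in the sum could not have been detected in Rn7s1 alone.

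Rn7s6 ran from 2.33 to 58.4 CPM (median 10.3) in generation 21, from 1.53 to 54.1 (median 4.12) in generation 22 and from 1.51 to 44.9 (median 3.78) in generation 23. Its log2 difference was -0.55 ± 0.17 for 23 minus 21 (0.682-fold, adjusted p = 0.00254 in edgeR). In libraries labelled female alone it was -0.30 and not called (adjusted p = 0.307 in edgeR), and in those labelled male alone -0.80 (adjusted p = 0.00265), a difference between the sexes that the interaction test did not call (adjusted p = 0.875). For 22 minus 21 it was -0.26 ± 0.18 (adjusted p = 0.228 in edgeR) and for 23 minus 22 -0.30 ± 0.18 (adjusted p = 0.253 in edgeR). The share of libraries above 10 CPM was 50.7%, 42.9% and 34.7% in generations 21, 22 and 23. That limit was set after the levels were seen. Since 17 of the 18 libraries between 7 and 15 CPM were of generation 21, its share moves most with the limit: with 15 CPM the shares were 44%, 42.9% and 34%, and with 7 CPM 55.3%, 42.9% and 34.7%. The median within the high range was 27.9, 27.9 and 25.7 CPM and within the low range 3.95, 3.3 and 3.15 CPM.

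**Figure D2:**
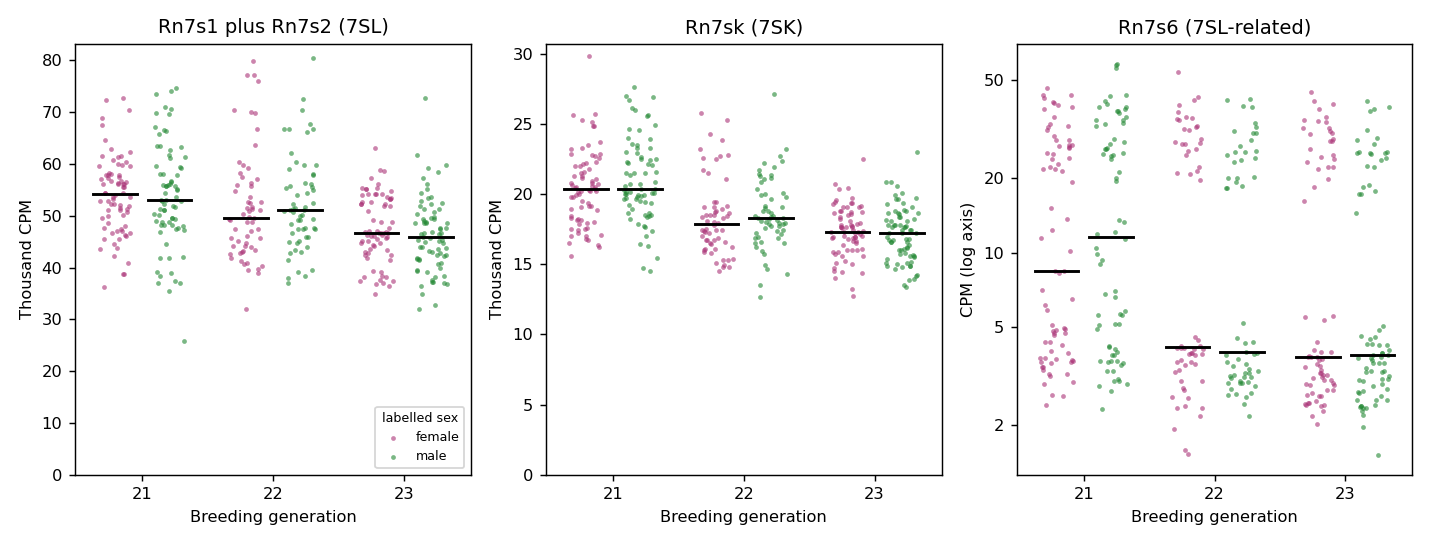
Level of the summed pair Rn7s1 plus Rn7s2 and of Rn7sk in units of 1000 CPM and of Rn7s6 in CPM on a log axis, 1 point per library, by breeding generation and labelled sex; bars are medians. The medians of Rn7sk step down from 20340 to 18050 and 17290 CPM over generations 21, 22 and 23, and Rn7s6 splits into a low and a high range in every generation.

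These counts are read against the whole table, since generation moved very many genes. Of the 22968 genes tested 46.6% were called for generation 22 minus 21 (22.1% higher and 24.5% lower), where 1 of the 4 members was called, Rn7sk, lower. For 23 minus 21 it was 58.3% (25.8% higher and 32.6% lower), with 3 of the 4 members called and all 3 lower. For 23 minus 22 it was 18.2% (8.53% higher and 9.63% lower), with Rn7sk again the only member called. With library totals as the only scaling, 62.7% of the genes called for 23 minus 22 were higher, against 47% with TMM, and Rn7sk kept its call and direction. The median log2 difference over all genes tested was between -0.02 and -0.01 in these comparisons. In such a background a called difference does not single out 7SL or 7SK, and the labels name no batch, so generation and any batch that goes with it cannot be told apart.

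Markers of several cell types moved with generation too. The summed level of 10 cortical excitatory neuron markers had a median of 104.3 CPM (71.7 to 932.1) in generation 21, 119.7 (70.5 to 1174) in generation 22 and 255.5 (72.2 to 1012) in generation 23, with 9 of the 10 called higher in 23 than in 21 and no marker at 0 in all libraries. Over the same generations 10 striatal spiny neuron markers had medians of 7268 CPM (170.2 to 8784), 7103 (1460 to 8293) and 6616 (3597 to 8179), with 6 of the 10 called lower in 23 than in 21. Of 8 thalamic neuron markers 8 were lower in 22 and 7 in 23 than in 21, with median log2 differences of -0.58 and -0.55, although their summed level had similar medians of 197.3 CPM (150 to 4620), 205.3 (171.8 to 268.9) and 204.4 (162.7 to 558.3). All 6 ependymal markers were lower in both later generations than in 21 (medians -0.22 and -0.38), with summed levels of 56.9 CPM (31.8 to 258.4), 49.7 (33.8 to 117.4) and 45.5 (29.3 to 101.6). For 23 minus 21, 4 of 5 blood, 6 of 8 microglial, 5 of 8 oligodendrocyte and 4 of 8 astrocyte markers were lower. In each of these lists except blood 1 marker was higher. Of 8 endothelial and mural markers 3 were higher and 2 lower, and 1 of 8 choroid plexus markers was lower. Of all genes tested 32.6% were called lower and 25.8% higher for 23 minus 21, and 24.5% lower for 22 minus 21. None of these markers was at 0 in all libraries. The part of ependymal, blood, microglial, oligodendrocyte, astrocyte and endothelial RNA in the 7SL and 7SK differences was not tested. With scores of spiny, cortical, thalamic and choroid plexus markers in the fit, Rn7sk still differed by -0.22 on the log2 scale for 23 minus 21 (adjusted p = 1.35e-17 in edgeR) and by -0.16 for 22 minus 21 (adjusted p = 2.84e-10). The difference of Rn7sk for 23 minus 22 was then -0.06 (adjusted p = 0.0735 in edgeR) and no longer called. The pair differed by -0.14 for 23 minus 21 (adjusted p = 1.98e-05 in edgeR) and by -0.11 for 23 minus 22 (adjusted p = 0.00924). Rn7s6 differed by -0.51 for 23 minus 21 (adjusted p = 0.0145 in edgeR). In bulk tissue fewer cells of a type and less RNA per cell cannot be told apart.

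The balance between 7SL and 7SK shifted with generation. The summed 7SL genes stood at 2.61 times Rn7sk at the median in generation 21, 2.82 times in generation 22 and 2.71 times in generation 23, as CPM. As a log2 ratio the means were 1.37 ± 0.158, 1.49 ± 0.118 and 1.44 ± 0.123 (SD). The ratio was higher in generation 22 than in 21 by 0.11 ± 0.017 (SE; two-sided permutation test within labelled sexes, p = 1e-05, the smallest 100000 resamples can give, adjusted p = 8e-05). It was higher in 23 than in 21 by 0.06 ± 0.016 (adjusted permutation p = 0.0002) and lower in 23 than in 22 by 0.05 ± 0.015 (adjusted permutation p = 0.00421). In libraries labelled female alone the last 2 differences missed the threshold (adjusted permutation p = 0.0717 and 0.22).

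The comparison of labelled sexes asked whether 7SL or 7SK differs between female and male striatum, and none of the 4 members was called. The mean level of Rn7sk was 18760 ± 2774 CPM (SD) for females and 18920 ± 2995 CPM for males, by label. The summed pair averaged 51110 ± 8654 and 50740 ± 9413 CPM. The log2 difference, female minus male, was -0.01 ± 0.018 for Rn7sk (adjusted p = 0.76 in edgeR), 0.01 ± 0.023 for the pair (adjusted p = 0.878), 0.09 ± 0.14 for Rn7s6 (adjusted p = 0.808), -0.02 ± 0.071 for Rn7s2 (adjusted p = 0.911) and 0.12 ± 0.32 for Rn7s1 (adjusted p = 0.897). For comparison 2.86% of the genes tested were called for sex, of which 54.4% were higher in females with TMM and 35.8% with library totals only. The log2 ratio of 7SL to 7SK was higher in libraries labelled female by 0.02 ± 0.014 (adjusted permutation p = 0.123), and without the 29 libraries whose Xist level goes against the labelled sex by 0.03 (adjusted permutation p = 0.0377). The sex difference did not depend detectably on generation in any member (edgeR interaction test, adjusted p between 0.875 and 0.976), where 0.322% of genes tested were called.

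The protein partners of 7SK moved in both directions between generations. Of 13 measured genes of the 7SK particle and P-TEFb, 7 were higher and 5 lower in generation 22 than in 21, 8 higher and 3 lower in 23 than in 21, and 2 higher and 1 lower in 23 than in 22. Of all genes tested 46.6%, 58.3% and 18.2% were called in these comparisons. The list's median log2 difference was 0.07, 0.07 and 0.01 in these comparisons, against -0.01, -0.02 and -0.01 over all genes tested. Mepce, which encodes the enzyme that caps 7SK, fell with Rn7sk, from 34.7 ± 2.89 CPM in generation 21 to 31.8 ± 2.36 in 22 and 31.1 ± 2.08 in 23 (SD; log2 -0.16 ± 0.013 for 23 minus 21, adjusted p = 1.37e-29 in edgeR).

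Ccnt2, a cyclin subunit of P-TEFb, rose instead, from 134.5 ± 14.3 to 145.8 ± 7.94 and 150.3 ± 10.1 CPM (log2 0.16 ± 0.014 for 23 minus 21, adjusted p = 2.01e-25 in edgeR). Syncrip and Hnrnpa2b1, RNA-binding proteins found in 7SK complexes without P-TEFb, rose by 0.17 ± 0.013 and 0.16 ± 0.016 on the log2 scale for 23 minus 21 (adjusted p = 1.54e-29 and 4.69e-19 in edgeR). Hnrnpr, of the same class, rose by 0.09 ± 0.013 for 22 minus 21 (adjusted p = 1.91e-10 in edgeR). Larp7, whose product binds and protects the 3′ end of 7SK, and Hexim1 and Hexim2, whose products inhibit P-TEFb on 7SK, are added here after their values were seen. For 23 minus 21 Larp7 rose by 0.08 ± 0.02 on the log2 scale and Hexim2 fell by 0.20 ± 0.026 (adjusted p = 0.000115 and 1.22e-12 in edgeR), while Hexim1 differed by -0.02 ± 0.013 (adjusted p = 0.258). For sex, 1 of the 13 was called, against 2.86% of all genes: Hnrnpr, at -0.03 ± 0.01 (adjusted p = 0.0414 in edgeR).

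The protein partners of 7SL were also called in both directions. Of 7 measured genes for proteins of the signal recognition particle, 3 were higher and 2 lower in generation 22 than in 21, 1 higher and 2 lower in 23 than in 21, 1 higher and none lower in 23 than in 22, and none was called for sex. Of all genes tested 46.6%, 58.3% and 18.2% were called between generations. Median log2 differences were 0.03, 0.03, -0.01 and 0.01. Srp14, of the subunit that binds the Alu-like ends of 7SL, fell from 38.2 ± 3.39 CPM in generation 21 to 35.9 ± 3.13 in 22 and 35.7 ± 2.77 in 23 (log2 -0.10 ± 0.014 for 23 minus 21, adjusted p = 1.23e-10 in edgeR). Srp54a, for the GTPase that binds signal peptides, rose from 8.92 ± 4.55 to 11.9 ± 5.98 and 12.2 ± 6.39 CPM (log2 0.45 ± 0.093 for 23 minus 21, adjusted p = 6.46e-06 in edgeR). Srp54a has near-identical relatives and reads may be shared among them. Srp68 fell by 0.07 ± 0.011 for 22 minus 21 (adjusted p = 5.03e-09 in edgeR) and rose by 0.04 ± 0.011 for 23 minus 22 (adjusted p = 0.00698).

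Of 17 measured genes of the particle's receptor and the translocation channel, 5 were higher and 8 lower in generation 22 than in 21, 5 and 10 in 23 than in 21, and 1 and 1 in 23 than in 22, with medians of -0.03, -0.05 and -0.01. The shares of all genes called were 46.6%, 58.3% and 18.2%. Sec62 and Sec63, membrane partners of the channel, rose by 0.19 ± 0.017 and 0.14 ± 0.012 on the log2 scale for 23 minus 21 (adjusted p = 8.54e-24 and 1.46e-25 in edgeR). Ssr2, a subunit of the translocon-associated complex, fell by 0.09 ± 0.014 (adjusted p = 3.18e-10 in edgeR). Srpr, the receptor subunit that meets the particle, was the only one called for sex, where 2.86% of all genes were, and higher in libraries labelled female by 0.04 ± 0.0089 (adjusted p = 0.00792 in edgeR).

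Genes of the machinery that transcribes 7SL and 7SK split as well. Of 31 measured genes for RNA polymerase III, its general factors and regulators, 7 were higher and 13 lower in generation 22 than in 21, 8 and 14 in 23 than in 21, and 1 and 2 in 23 than in 22, with medians of -0.01, -0.02 and 0. Of all genes tested 46.6%, 58.3% and 18.2% were called. Bdp1, a subunit of the initiation factor TFIIIB, rose from 86.1 ± 11.2 CPM in generation 21 to 95.2 ± 6.81 in 22 and 97.9 ± 6.24 in 23 (log2 0.18 ± 0.016 for 23 minus 21, adjusted p = 3.39e-24 in edgeR). Maf1, the general repressor of the polymerase, fell from 34.9 ± 3.32 to 32.7 ± 1.94 and 32 ± 1.84 CPM (log2 -0.13 ± 0.012, adjusted p = 1.17e-20 in edgeR). Snapc2, of the complex that recognises 7SK-type promoters, fell by 0.20 ± 0.02 (adjusted p = 7.53e-20 in edgeR). For sex 1 of the 31 was called, near the 2.86% of all genes: Tbp, the TATA-binding protein, at -0.04 ± 0.012 (adjusted p = 0.0363 in edgeR).

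Other structured noncoding RNAs differed between generations in both directions. Of 32 listed RNAs that the table holds, 19 were tested: 2 were higher and 5 lower in generation 22 than in 21, 2 and 6 in 23 than in 21, and 0 and 4 in 23 than in 22. Of all genes 46.6%, 58.3% and 18.2% were called. Median log2 differences of the list were 0.04, -0.02 and -0.07, against -0.01, -0.02 and -0.01 over all genes. Rpph1, the RNA of the enzyme that trims tRNA precursors, fell from 1776 ± 315.6 CPM in generation 21 to 1593 ± 333.8 in 22 and 1495 ± 244.8 in 23 (log2 -0.25 ± 0.03 for 23 minus 21, adjusted p = 2.41e-14 in edgeR). Scarna2 and Scarna13, guide RNAs that direct modification of spliceosomal RNAs in Cajal bodies, fell by 0.32 ± 0.028 and 0.28 ± 0.027 for 23 minus 21 (adjusted p = 4.96e-25 and 1.08e-20 in edgeR). Malat1 rose by 0.11 ± 0.017 for 23 minus 21 (adjusted p = 3.88e-09 in edgeR). Rnu12, an RNA of the minor spliceosome, rose by 0.38 ± 0.056 for 22 minus 21 and by 0.21 ± 0.053 for 23 minus 21, and fell by 0.17 ± 0.056 for 23 minus 22 (adjusted p = 3.85e-10, 0.000265 and 0.0176 in edgeR).

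Remnants of ribosomal RNA were lower in later generations. All 5 measured members of that list were lower in generation 23 than in 21. Of these, 3 were lower in 22 than in 21 and 3 in 23 than in 22. Medians in these comparisons were -0.68, -0.41 and -0.27 on the log2 scale. Of all genes 32.6%, 24.5% and 9.63% were called lower in them. The median for 23 minus 21 was the value of mt-Rnr2. For 22 minus 21 it was that of mt-Rnr1, which was not called there (adjusted p = 0.0632 in edgeR). In generation 21 the SDs of mt-Rnr2, Lars2 and mt-Rnr1 exceeded their means, at 353.5 ± 1042, 261.8 ± 1233 and 154.6 ± 474.8 CPM. Gm42418 and Gm26917, models that overlap ribosomal RNA sequence, averaged 1353 ± 428.1 and 6212 ± 1224 CPM (SD) over all libraries. For 23 minus 21 they fell by 0.38 ± 0.045 and 0.24 ± 0.03 on the log2 scale (adjusted p = 2.44e-14 and 1.46e-13 in edgeR). Levels of these listed genes thus differed between the same generations as 7SL and 7SK, and their part in that difference was not tested.

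**Figure D3:**
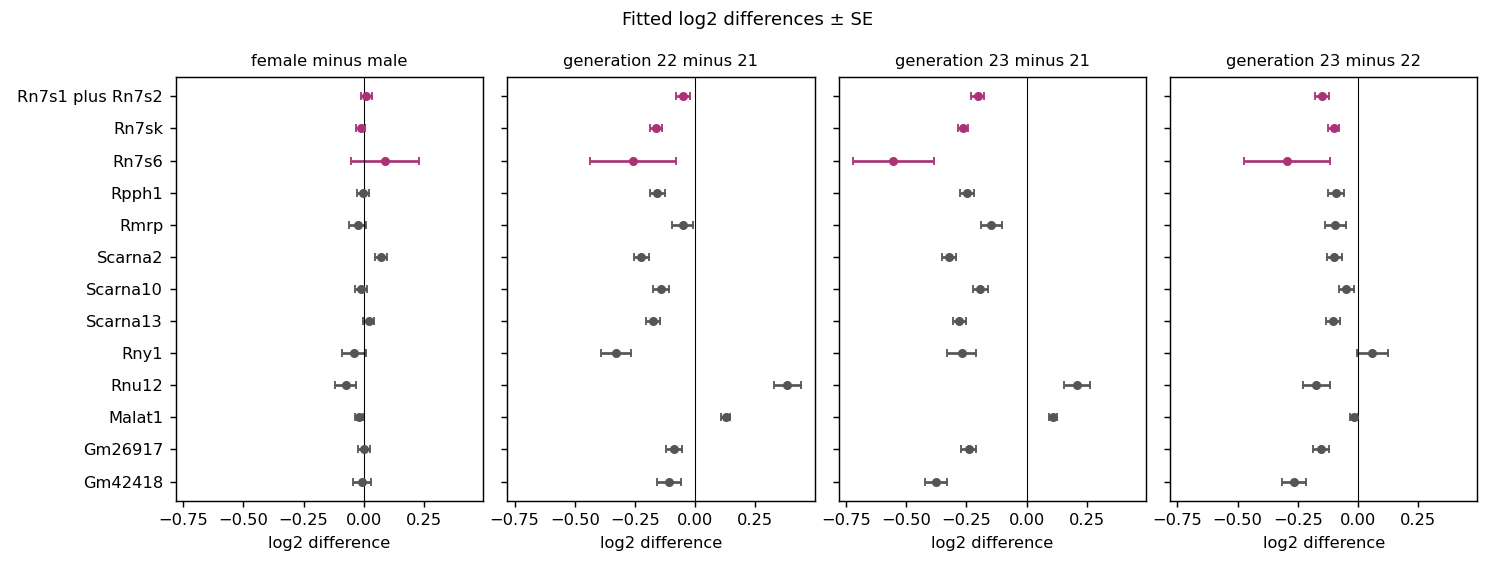
Fitted log2 differences ± SE for the summed pair, Rn7sk and Rn7s6 (coloured) and for 10 other RNAs (grey) in the 4 comparisons: the 8 structured noncoding RNAs called for generation 23 minus 21 and 2 ribosomal RNA remnants. For 23 minus 21 Rnu12 and Malat1 lie above 0, at 0.21 and 0.11, and the others below, from -0.15 for Rmrp to -0.55 for Rn7s6.

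Across libraries the level of 7SL followed that of 7SK. Over 416 libraries the summed 7SL level correlated with Rn7sk at Pearson r = 0.826 and Spearman rho = 0.845 on log2 CPM (permutation p = 1e-05 for each, adjusted p = 2.1e-05 and 1.7e-05 over 15 correlations). Without the 2 libraries farthest from the Rn7sk median r was 0.823, and within generations 21, 22 and 23 it was 0.765, 0.905 and 0.811. Both levels share the library's total as denominator. For Rn7s2 alone r was taken within the bands of the Rn7s1 share, where it ran from 0.705 to 0.891 with Rn7sk. No correlation pooled over all libraries is given for Rn7s1, Rn7s2 or Rn7s6, whose libraries fall into separate clusters.

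**Figure D4:**
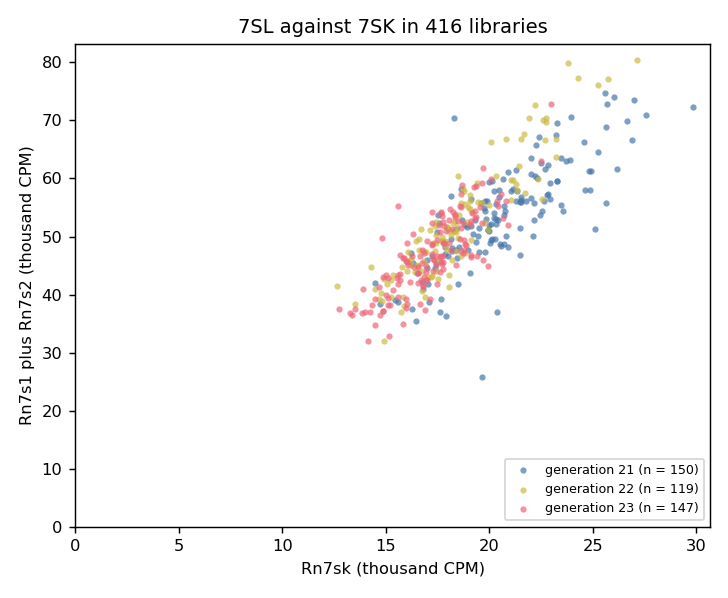
Summed Rn7s1 plus Rn7s2 against Rn7sk, both in units of 1000 CPM, 1 point per library coloured by generation. The points form a single rising cloud in which libraries of generation 23 lie toward the lower left.

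Rpph1 and Rmrp, the RNAs of RNase P and RNase MRP and also polymerase III products, rose and fell with both. For summed 7SL r was 0.831 with Rpph1 and 0.753 with Rmrp, with rho of 0.841 and 0.737. For Rn7sk r was 0.842 and 0.743, with rho of 0.834 and 0.757. Each of these had a permutation p of 1e-05 and an adjusted p of 2.1e-05 for r. Without the 2 farthest libraries the 4 values of r lay between 0.744 and 0.841, and within single generations between 0.706 and 0.853.

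Technical measures and cell type scores gave weaker relations. For the total count r was 0.135 with summed 7SL and 0.125 with Rn7sk (adjusted permutation p = 0.00885 and 0.0135). Within generations 21, 22 and 23 it was 0.035, -0.071 and 0.15 with summed 7SL and 0.002, -0.183 and 0.109 with Rn7sk. These relations thus changed sign between generations, and r within a generation was not tested. For the mitochondrially encoded share r was -0.171 with summed 7SL and -0.03 with Rn7sk (adjusted permutation p = 0.0008 and 0.541). Within generations 21, 22 and 23 it was -0.257, -0.268 and -0.065 with summed 7SL and -0.015, -0.245 and -0.095 with Rn7sk. The cortical excitatory neuron score had r = -0.295 with summed 7SL and -0.415 with Rn7sk (adjusted permutation p = 2.1e-05 for each), and within generations r ran from -0.268 to -0.115 and from -0.379 to -0.175. The striatal spiny neuron score had r = 0.058 and rho = 0.267 with summed 7SL (adjusted permutation p = 0.249 and 1.7e-05), and r = 0.209 and rho = 0.355 with Rn7sk (adjusted permutation p = 3.7e-05 and 1.7e-05). Without the 2 libraries farthest from the score's median r was 0.227 and 0.33, so the lower pooled values of r rest on those libraries. Within generations r of that score ran from -0.076 to 0.213 with summed 7SL and from 0.162 to 0.364 with Rn7sk. For the mitochondrial ribosomal RNA mt-Rnr2 r was 0.083 and 0.13 with summed 7SL and with Rn7sk (adjusted permutation p = 0.107 and 0.0114), and within generations it ran from -0.025 to 0.14 and from 0.064 to 0.156.

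The genes most like Rn7sk and the summed pair were taken from 14897 named genes by Spearman correlation over the 416 libraries, as a description. For Rn7sk they were Rpph1 (0.834), the histone gene Hist1h4h (0.767), the 7SK-like Gm24447 (0.765), Rmrp (0.757) and the Cajal body RNA Gm22442 (0.746). For the summed pair they were Rpph1 (0.841), the 7SL-like Gm26461 (0.81), Rmrp (0.737), Gm24447 (0.66) and Hist1h4h (0.658). Gm26461 and Gm24447 share sequence with the members they follow.

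Facts of the whole set of libraries bear on these values as follows. Total counts ran from 20331813 to 77458299, with medians of 44816301, 44140036 and 40924371 in generations 21, 22 and 23, so counting error on the pair and on Rn7sk was negligible beside the spread between animals. In 29 libraries Xist went against the labelled sex. By total count or correlation with the others 29 libraries stood apart, 14, 6 and 9 in the 3 generations. The striatal spiny neuron markers were measured throughout, while 1 library held only 170.2 CPM of them in sum and choroid plexus markers reached 15840 CPM in another against a median of 30.4 CPM. Leaving out those that stood apart, the log2 difference for 23 minus 21 was -0.26 for Rn7sk and -0.18 for the pair (adjusted p = 2.5e-25 and 2.1e-09 in edgeR).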

How the data were processed

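RNA of the striatum was sequenced in 416 libraries, per the labels' protocols from total RNA depleted of ribosomal RNA with a stranded kit and read as 100 bp pairs. The authors deposited 1 table of estimated counts per gene ID (46517 IDs), 23.8% of them not whole. The aligner, counting tool, build and annotation behind these counts are not given in the sources used here, so no coordinates are printed. GENCODE M21 (GRCm38) matched 46005 IDs (98.9%). Columns were joined to libraries by animal number and 0 were left over.

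Estimated counts were rounded, filtered with edgeR's filterByExpr over the 6 groups of sex and generation (minimum count 10, 22968 genes kept), scaled with TMM, and modelled on sex plus generation by the robust quasi-likelihood method of edgeR 4.0.16 in R 4.3.3. Calls required p under 0.05 after Benjamini-Hochberg adjustment, and all tests are two-sided. Log2 CPM carry a prior count of 2. Levels of members use the unrounded estimates. As Rn7s1 and Rn7s2 are identical, their sum was also fitted as 1 row, a step added after the data were seen. Single values used permutation tests with 100000 resamples within strata, and 20000 in their alternatives. Spread is between libraries, each with its own animal number. The correlations planned for Rn7s2 and for Rn7s1 with Rn7s2, and the genes most like Rn7s1, Rn7s2 and Rn7s6, are not given, since those libraries form clusters.

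The members, the 16 gene lists, the tests and the alternatives were chosen with earlier results of these data known. Named are the 4 members, up to 4 called genes per list and comparison with the smallest adjusted p, the 5 genes most correlated with Rn7sk and with the summed pair, and the 4 related models of highest count per family. Not every gene that meets this rule is printed. Related models were found with BLAST 2.17.0 (E value up to 1e-10). Alternatives were RLE and upper-quartile factors, library totals only, 2 other filters, limma voom (limma 3.58.1), DESeq2 1.42.0, added covariates, a single sex or generation, and leaving out libraries whose Xist (limit 100 CPM) goes against the label, or with a total under 0.5 of the median or a correlation more than 4 scaled median absolute deviations low. The summed pair was refitted in only a part of these settings. The fits and permutation tests were tested on simulated data. The sequences of the 7SL models are not reported here.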

Additional observations from a re-analysis of the deposited data

How the results depend on the processing

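The summed pair kept its direction and its side of the threshold in all 30 alternatives run, and its log2 difference for generation 23 minus 21 lay between -0.215 and -0.142. Rn7sk did so in 50 of 53 and Rn7s6 in 51 of 53. The causes of the changes below were not tested, except that settings with a single sex or generation use fewer libraries. Calls lost were Rn7sk for 23 minus 22 in libraries labelled female (-0.083) and with marker scores as covariates (-0.063), Rn7s6 for 23 minus 21 in libraries labelled female (-0.305), and Rn7s2 for 23 minus 21 without libraries standing apart by total or correlation (-0.139), in either sex alone (-0.257 female, -0.154 male) and with limma voom (-0.172). Rn7s2 for 23 minus 22 became a call with upper-quartile factors (-0.237), a mean CPM of at least 1 (-0.231) and DESeq2 (-0.229). Uncalled differences changed sign for Rn7s1 (sex in generation 21, -0.158; 23 minus 21 in females, 0.03; 23 minus 22 with voom, -0.204), Rn7s2 (sex without libraries against their label, 0.015, and in generation 21, 0.059; 22 minus 21 with total count and mitochondrial share as covariates, -0.004, and in females, -0.051), Rn7s6 (sex in generation 21, -0.188) and Rn7sk (sex in generation 23, 0.018).

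The Rn7s1 share changed sign for sex in generation 21 (-1.1 percentage points) and for 23 minus 21 in females (2.9), both uncalled. The log2 ratio of 7SL to 7SK for sex was called without libraries against their label (0.0328) and was -0.00322 in generation 22, and in females it lost its calls for 23 minus 21 (0.0495) and 23 minus 22 (-0.0354). Without libraries standing apart by total or correlation, the relation with total count lost its call for summed 7SL (r = 0.086) and Rn7sk (0.073), that of Rn7sk with mt-Rnr2 did too (0.101, and 0.089 with library totals only), and that of summed 7SL with the spiny neuron score gained one (0.316). Of genes tested 2.86% were called for sex, against 4.75% without libraries against their label, 5.9% without those standing apart by total or correlation, and 0.289%, 0.243% and 0.528% in generations 21, 22 and 23 alone. For 22 minus 21 it was 46.6%, against 28.6% in males, and for 23 minus 22 18.2%, against 4.08% in females and 4.57% in males. No paired analysis was possible because replicate numbers only name libraries. Depth did not limit the pair or Rn7sk.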
